A study of Mus musculus with 24 samples.

Results

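The genes described here are those by which Paneth cells are usually recognized, as they were read on arrays of mouse colon: Lyz1, Mmp7, Itln1, Ang4, Mptx1, Defa17, Defa24 and the transcript listed under the accession NM_010031. They were chosen from values measured on these same arrays, so their levels and their diet differences are given as a description, without a test. Of the 7 genes named by symbol, 6 were matched to a probe, and Defa17 had no matching probe and has no value here. With NM_010031, which the gene table used here did not name, 7 genes had values, out of 45616 gene names on the array. They were read by 8 probes out of 56605, with 2 probes for NM_010031 and 1 for each other gene.

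Paneth cells are secretory cells at the base of the crypts of the small intestine, where they release antimicrobial proteins from granules and signal to neighbouring stem cells. The healthy colon holds few or none of them beyond its proximal end, and Paneth-like cells in the distal colon are known as a metaplastic change in inflammation and in some tumors. Several products often listed for Paneth cells, such as angiogenins, intelectins and lysozyme, are also made by goblet cells or by macrophages. In bulk colon RNA, fewer cells of a type and less RNA per cell cannot be told apart.

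The RNA came from C57BL/6J mice of 6 groups with 4 arrays each, 1 mouse per array, on 3 slides. The groups were males (M), females (F) and ovariectomized females (F(OVX)), and each was fed for 14 weeks on low fat (LFD, with 10 kcal% from fat) or high fat (HFD, with 45 kcal%). Per the methods the M and F mice had sham surgery, and array animals were picked for a body weight near their group's average. The mice were bought at 7 weeks of age, and all of them, LFD groups included, received azoxymethane (AOM, 10 mg/kg), a colon carcinogen, and then DSS, an inflaming sulfated dextran, at 1.5% in 3 cycles. They were killed 75 days after AOM. No group was left without AOM and DSS, so the level in untreated colon is not known from these arrays. The methods name 5 animals per group for the arrays and the labels give 4. All levels below are log2 values of the background-subtracted spot intensity after quantile normalization over the 24 arrays, and a spot is called well above background where the scanner software flagged it so.

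Some arrays stood apart before any comparison. Hoxb13, a gene of the most distal colon, read 2.18 on M + LFD replicate 1 and 5.05 on replicate 2, against 12.61 to 14.87 on the other 22 arrays. The mean level of 8 anterior Hox genes, which mark more proximal gut, was 10.25 and 9.85 on these arrays and 5.65 to 7.47 on the others. Per array, 40.5% to 61.9% of probes were well above background, lowest on F(OVX) + LFD replicate 3. Sex and surgery each had a slide of their own, HFD always lay in row 2 below LFD in row 1, and the replicate number was the slide column, so slide and sex or surgery, and slide row and diet, cannot be told apart.

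The sequences below are shown because the genes within each pair rose and fell together over the arrays, as described further on. They are RefSeq promoter windows on GRCm38.p6, from 250 bases before to 50 bases after the annotated start, read 5′ to 3′ on the strand of the gene. Capitals mark matches on either strand to 3 short motifs: TATAAA (bound by the general transcription machinery), CTTTGAT (the core bound by TCF and LEF factors, the nuclear effectors of Wnt signaling) and TTTATNG (a core shared by CDX and posterior HOX factors), and the motifs can overlap, as TTTATNG does with TATAAA in the defensins.
Defa23, chr8:21054790-21055089, plus strand: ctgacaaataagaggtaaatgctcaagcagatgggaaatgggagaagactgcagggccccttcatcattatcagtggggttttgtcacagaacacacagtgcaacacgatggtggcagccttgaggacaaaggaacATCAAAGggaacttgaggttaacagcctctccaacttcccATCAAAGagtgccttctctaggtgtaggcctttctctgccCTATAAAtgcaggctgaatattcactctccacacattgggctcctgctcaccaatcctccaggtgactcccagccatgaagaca
Defa2, chr8:21378267-21378566, plus strand: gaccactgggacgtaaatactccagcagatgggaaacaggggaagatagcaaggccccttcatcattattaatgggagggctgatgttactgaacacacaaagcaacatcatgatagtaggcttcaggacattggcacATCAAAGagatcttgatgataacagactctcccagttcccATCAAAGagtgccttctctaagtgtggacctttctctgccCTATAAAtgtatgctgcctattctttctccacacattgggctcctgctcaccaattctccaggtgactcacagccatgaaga
Ang4, chr14:51773541-51773840, minus strand: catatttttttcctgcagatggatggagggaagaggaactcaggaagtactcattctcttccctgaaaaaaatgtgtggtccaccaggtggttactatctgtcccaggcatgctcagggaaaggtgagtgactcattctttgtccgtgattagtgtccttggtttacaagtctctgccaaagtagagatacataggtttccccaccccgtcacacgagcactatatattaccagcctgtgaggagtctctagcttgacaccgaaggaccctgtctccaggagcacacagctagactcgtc
Ang6, chr14:44006369-44006668, minus strand: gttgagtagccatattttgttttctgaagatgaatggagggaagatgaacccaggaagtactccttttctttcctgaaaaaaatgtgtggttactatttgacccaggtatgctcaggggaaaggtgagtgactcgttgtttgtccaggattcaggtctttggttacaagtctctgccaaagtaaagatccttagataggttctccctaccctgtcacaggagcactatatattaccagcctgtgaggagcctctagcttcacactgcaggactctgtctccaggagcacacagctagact
Mptx1, chr1:174330268-174330567, plus strand: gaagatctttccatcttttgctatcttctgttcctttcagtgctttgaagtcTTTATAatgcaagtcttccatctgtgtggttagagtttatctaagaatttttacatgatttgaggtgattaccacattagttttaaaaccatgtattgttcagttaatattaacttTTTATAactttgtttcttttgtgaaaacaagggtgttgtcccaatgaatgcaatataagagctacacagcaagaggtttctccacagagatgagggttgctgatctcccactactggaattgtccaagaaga
Mptx2, chr1:173277707-173278006, minus strand: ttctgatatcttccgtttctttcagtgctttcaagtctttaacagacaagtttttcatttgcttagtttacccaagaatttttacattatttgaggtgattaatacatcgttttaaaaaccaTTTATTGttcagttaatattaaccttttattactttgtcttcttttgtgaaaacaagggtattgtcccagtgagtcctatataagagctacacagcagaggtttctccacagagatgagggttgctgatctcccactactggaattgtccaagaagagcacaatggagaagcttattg

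Defa23 and Defa2, 2 alpha-defensins from the same cluster on chromosome 8 as the member genes' family, were printed because the table held no window for Defa24, Defa17 or NM_010031. Their windows aligned with 81.2% identity, those of Ang4 and Ang6 with 80.5% and those of Mptx1 and Mptx2 with 78.0%, whereas windows of Mptx1, Ang4 and Defa23 aligned with each other at 48.1% to 50.3%. CTTTGAT was present in 13 of the 16 windows with a Defa symbol, against 3.73% of all 32851 windows of this length. TATAAA was present in 15 of these 16 windows against 13.6% of all, and TTTATNG in 13 against 10.9%. Of the other members, Mmp7 had a CTTTGAT match just after the first of its annotated starts, while Lyz1, Itln1, Ang4 and Mptx1 had none in their windows. A match is a description of the letters and no evidence that a factor binds there.

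Alpha-defensins are the small antimicrobial peptides that define the Paneth cell granule. The signal of the members among them was high on 4 arrays and low or absent on the rest. Defa24 read 3.34, 2.24, 13.19 and 14.29 on F + LFD replicates 1 to 4, of which replicates 1 and 2 were not well above background. It read 3.73, 4.82, 12.65 and 14.09 on F(OVX) + LFD replicates 1 to 4, with replicate 1 not well above background. The last pair of replicates in each of these groups was thus far above the first pair, and the means of 8.26 ± 6.35 (SD, n = 4) and 8.82 ± 5.30 (SD, n = 4) describe no array.

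In M + LFD, Defa24 read 3.96, 8.72, 2.92 and 4.79, and in M + HFD 6.30, 2.5, 3.49 and 5.78. In F + HFD it read 2.22, 4.44, 5.77 and 3.70, and in F(OVX) + HFD 2.84, 3.42, 2.36 and 2.41. The highest of these arrays was M + LFD replicate 2, and none of the F(OVX) + HFD arrays was well above background. Ordered by level, Defa24 stepped down by 3.93 from 12.65, the lowest of the 4 high arrays, to 8.72 on M + LFD replicate 2.

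The brighter probe of NM_010031 followed the same arrays. It read 3.77, 2.12, 12.86 and 14.07 in F + LFD and 4.19, 4.20, 12.36 and 13.69 in F(OVX) + LFD, and in M + LFD 3.26, 8.77, 2.09 and 4.64. It read 6.52, 2.04, 2.14 and 5.77 in M + HFD, 2.68, 4.00, 5.67 and 2.13 in F + HFD and 2.08, 2.07, 2.15 and 2.94 in F(OVX) + HFD. The same 4 arrays were high, M + LFD replicate 2 was again next, and the step to it was 3.59. The dimmer probe read 10.62, 11.62, 10.33 and 11.56 on these 4 arrays and at most 6.09 on the other 20. Defa24 and the brighter probe correlated at r = 0.94 over those 20 arrays, although most of these values were not well above background.

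Some other alpha-defensins outside the members did the same. Of 14 further Defa genes with a probe, 6 (Defa2, Defa3, Defa23, Defa27, Defa36 and Defa40) were highest on the same 4 arrays with a step of more than 1, and 2 were not well above background on any array. Defa23 read 12.86 and 14.04 on the pair of F + LFD arrays and 12.33 and 13.82 on the pair of F(OVX) + LFD arrays, and at most 8.06 elsewhere. Defa21 and Defa42 did not follow this pattern: they read 8.50 and 7.36 on F + LFD replicate 4 and at most 4.64 and 6.59 on all others. Defa26, Defa29, Defa38 and Defa43 did not have these as their 4 highest arrays either. Defa26 was highest on F + HFD replicate 2, at 6.7. Defa29 read 6.57 on F + LFD replicate 4 and 6.43 on M + LFD replicate 2. Over 45598 gene names, 36 had these as their 4 highest arrays, 11 of them with a step of more than 1, and these 11 were 8 genes with a Defa symbol and 3 accessions without a symbol, NM_010031 among them. Alpha-defensin genes are near-identical copies, so how far each probe reads its own gene alone was not tested.

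**Figure D1:**
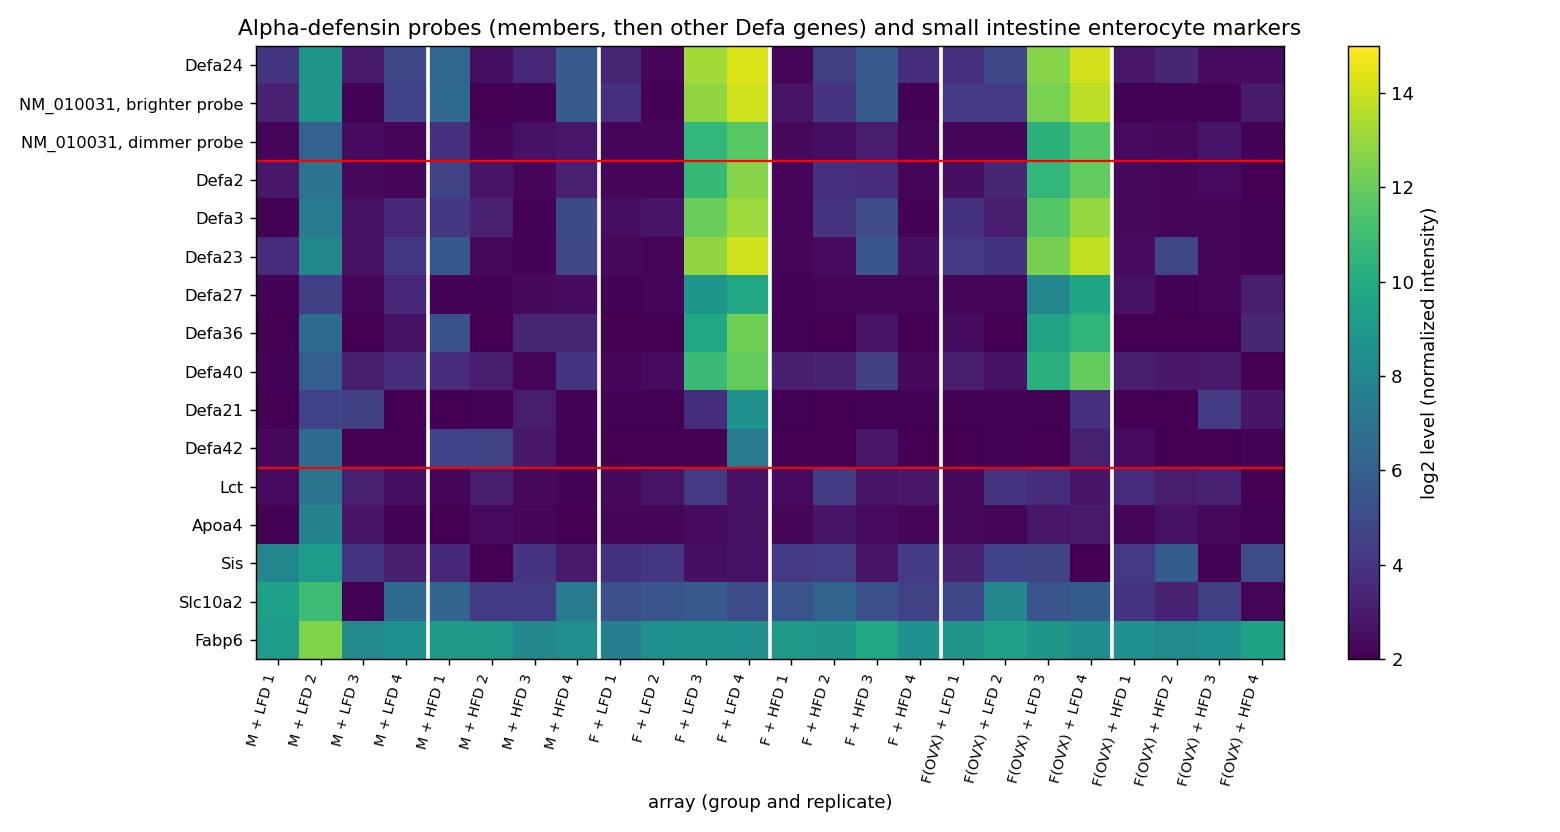
Heat map of log2 levels (color scale, 2 to 15) of alpha-defensin probes (members above the first red line, other Defa genes below it) and of small intestine enterocyte markers (below the second red line) on the 24 arrays, with white lines between groups. The defensins shown, other than Defa21 and Defa42, were bright on replicates 3 and 4 of F + LFD and F(OVX) + LFD. The enterocyte markers were brightest on M + LFD replicate 2.

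Because Paneth cells belong to the small intestine, enterocyte markers were read on the same arrays. Apoa4 and Apoa1, lipoprotein genes of the small intestine, and Sis, the sucrase-isomaltase of its brush border, were not well above background on any of the 4 defensin-high arrays. Lct, the lactase, was at 4.19 on F + LFD replicate 3, where it was well above background, and at 2.66 to 3.69 on the other 3. All of these markers were highest on M + LFD replicate 2, where Apoa4 read 7.80, Apoa1 6.36, Sis 9.21, Lct 6.99, the ileal bile acid binding protein gene Fabp6 12.53 and the ileal bile acid transporter gene Slc10a2 10.89. On the 4 defensin-high arrays Fabp6 read 8.31 to 8.89, within its range of 7.60 to 12.53 on the other 20. Slc10a2 read 4.95 to 5.84 on the 4 arrays, within its range of 2.08 to 10.89 on the other 20. It was well above background on each of the 4 but F(OVX) + LFD replicate 3. The mean over 11 measured enterocyte markers was 7.02 and 7.48 on the F + LFD pair and 7.43 and 7.29 on the F(OVX) + LFD pair, and 9.62 on M + LFD replicate 2. Hoxb13 read 13.93 to 14.48 on the 4 arrays, within the range of the 22 arrays with high Hoxb13.

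The 4 arrays lay in columns 3 and 4 of the LFD row on the F and F(OVX) slides, and the same columns of that row on the M slide were not high. Of the transcription factors of the secretory lineage, Sox9 read 9.17 to 10.24 on them and 8.58 to 10.29 elsewhere, and Atoh1 read 11.08 to 11.92 on them and 10.07 to 12.33 elsewhere. Gfi1 read 9.09 to 9.92 on them and 8.26 to 10.24 elsewhere. Spdef read 11.29 to 13.34 on them and 11.69 to 13.93 elsewhere, with its lowest value of all arrays on F + LFD replicate 3. The mean over 12 macrophage markers was 11.48 and 10.83 on the F + LFD pair, the highest of all arrays, and 10.28 and 10.42 on the F(OVX) + LFD pair, against 9.46 to 10.78 elsewhere. The mean over 10 absorptive colonocyte markers was 11.40 and 12.54 on the F + LFD pair and 11.54 and 11.58 on the F(OVX) + LFD pair, among the lowest on 3 of these 4 arrays, against 11.53 to 13.78 elsewhere. The mean over 15 stem cell genes and Wnt targets was 8.11 and 8.38 on the F + LFD pair, the highest of all arrays, and 7.41 and 7.94 on the F(OVX) + LFD pair, against 7.12 to 8.01 elsewhere. Over 13 goblet cell markers the mean was 14.19 to 14.56 on the 4 arrays, against 13.36 to 15.02 elsewhere. Of the 13, Zg16 was lowest on the F(OVX) + LFD pair (15.42 and 15.56) and read 16.34 or more elsewhere. Retnlb, another of the 13, was instead highest of all arrays on F(OVX) + LFD replicate 3, at 15.54. The part of macrophages, of the makeup of the epithelium, of slide position or of the piece of colon sampled in the defensin signal was not tested.

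Compared by diet, Defa24 and NM_010031 were lower on HFD in both female groups, by differences that the 4 arrays set. Defa24 differed by -4.23 ± 3.26 (SE) between F + HFD and F + LFD, and by 1.24 with the high pair of F + LFD arrays left out. In F(OVX) no HFD array was well above background, and Defa24 was at least 16.5-fold lower on HFD. By its brighter probe, NM_010031 differed by -4.58 ± 3.17 (SE) in F and by 0.68 without the pair. In F(OVX) it was at least 14.2-fold lower on HFD by this probe. Without the high pair the F(OVX) differences were -1.52 for Defa24 and -1.89 for NM_010031, between values at or near background. In M the differences were -0.58 ± 1.56 (SE) and -0.57 ± 1.87 (SE), and they became 0.63 and 0.79 without M + LFD replicate 2. The F(OVX) groups did not overlap for Defa24 or the brighter probe of NM_010031, but the lower pair of LFD arrays reached only 3.73 and 4.82 for Defa24. By the dimmer probe of NM_010031 the F(OVX) groups overlapped, and the level was at least 3.46-fold lower on HFD.

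Mmp7 encodes matrilysin, the metalloproteinase that cuts mouse alpha-defensin precursors to their active form, and it is also a Wnt target raised in intestinal tumors. It read 8.01, 7.55, 6.38 and 6.46 in M + LFD and 3.12, 3.57, 5.71 and 6.23 in M + HFD, where the first pair was not well above background. The male groups did not overlap, and HFD minus LFD was -2.44 ± 0.87 (SE). This difference was -1.76 without M + LFD replicates 1 and 2, and -1.04 when the background was corrected by normexp instead. The cause was not tested.

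In F + LFD, Mmp7 read 7.13, 5.81, 6.74 and 11.36, and in F + HFD 5.21, 6.04, 4.74 and 7.22. In F(OVX) + LFD it read 6.76, 3.76, 7.26 and 7.54, with replicate 2 not well above background, and in F(OVX) + HFD 5.58, 6, 5.63 and 5.39. The groups overlapped in both comparisons, and F + LFD replicate 4 was the highest of all 24 arrays. The differences were -1.96 ± 1.35 (SE) in F and -0.68 ± 0.88 (SE) in F(OVX), the former falling to -0.76 without F + LFD replicate 4 and the latter turning to 0.39 without the defensin-high pair of F(OVX) + LFD arrays.

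F + LFD replicate 4 was also the highest array for some Wnt target genes, among them Wif1 (9.49), Nkd1 (8.83), Notum (9.09) and Prox1 (7.55). These were picked after their values were seen from a list of stem cell genes and Wnt targets in which Axin2, another Wnt target, read 3.78 on that array and up to 6.90 elsewhere. Over all 24 arrays the r of Mmp7 was 0.62 with Wif1 (rho = 0.29), 0.43 with Nkd1 (rho = 0.16) and -0.35 with Axin2 (rho = -0.18), and 0.12 with the mean of 15 genes of the list (rho = -0.20). Without F + LFD replicate 4 and M + HFD replicate 1, the arrays farthest from the Mmp7 median, it was 0.27 with Wif1, 0.23 with Nkd1 and -0.26 with the list mean. As deviations from the group means, r was 0.56 with Wif1, 0.50 with Nkd1, 0.58 with Notum and 0.43 with Prox1. It was -0.56 with Axin2 and 0.13 with the list mean. On the defensin-high arrays Mmp7 read 6.74, 11.36, 7.26 and 7.54, all above its median of 6.14, and the F(OVX) + LFD pair was the higher pair of its group. M + LFD replicates 1 and 2 reached 8.01 and 7.55, so no step like that of the defensins set the 4 arrays apart.

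**Figure D2:**
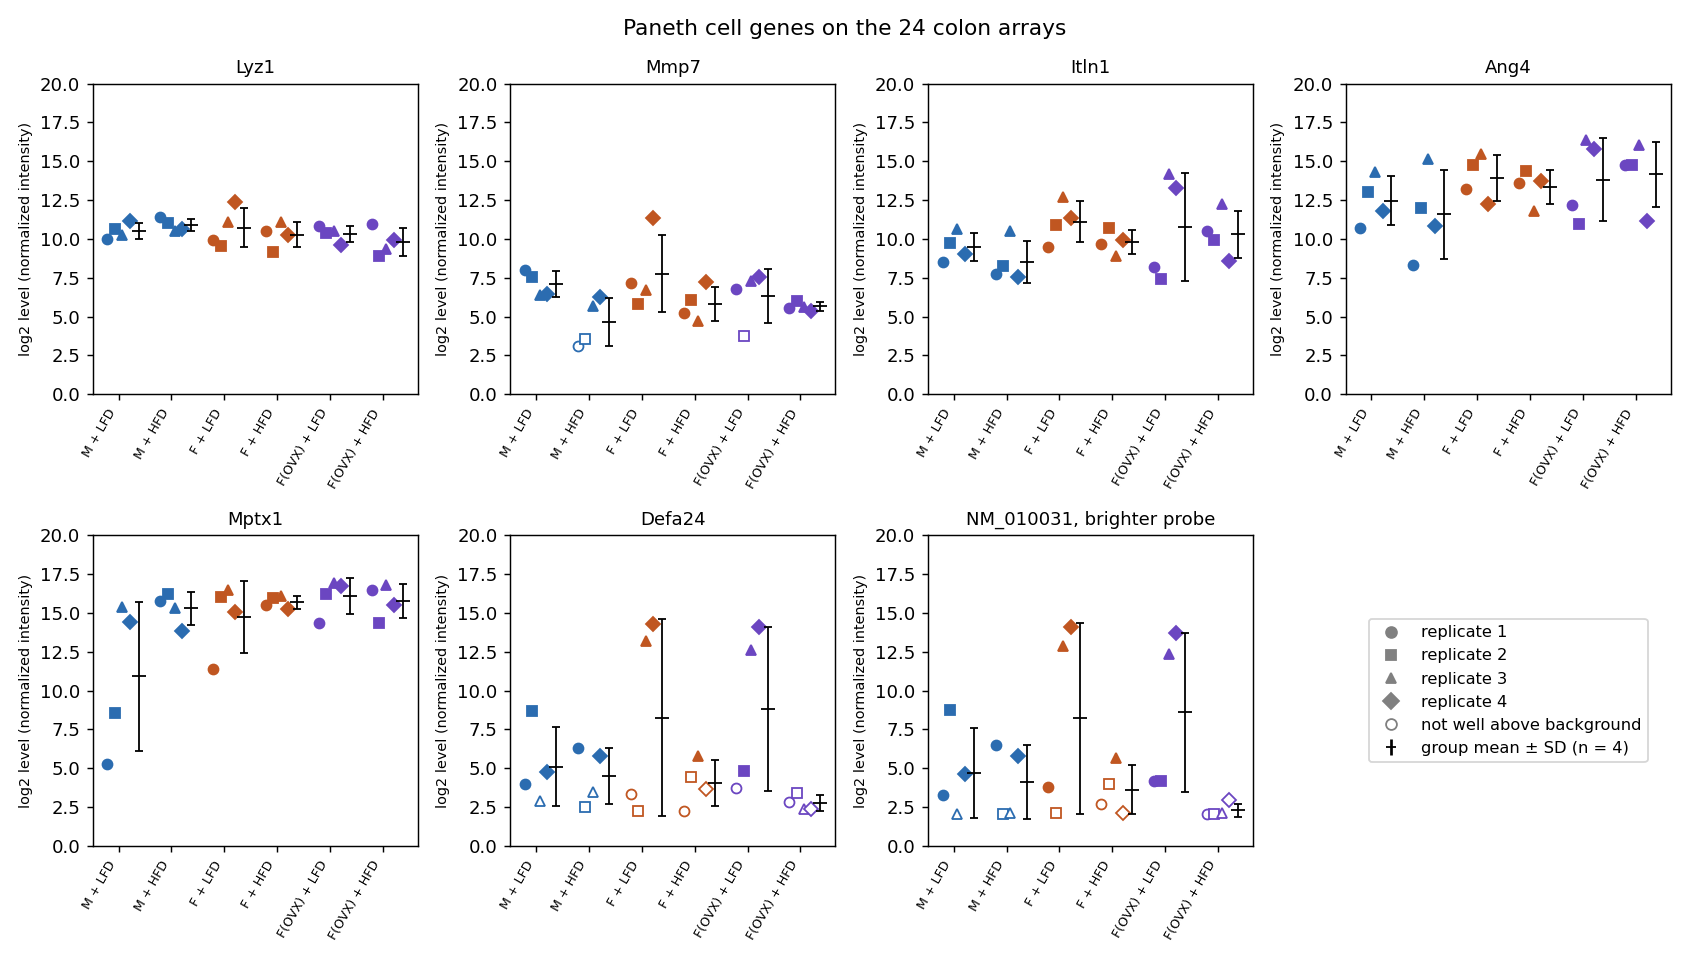
Log2 level of each member on every array, by group and replicate, with open symbols where the spot was not well above background and black bars for the group mean ± SD (n = 4). Defa24 and NM_010031 split F + LFD and F(OVX) + LFD into a high and a low pair, Mptx1 was low on M + LFD replicates 1 and 2 (5.29 and 8.57), and Lyz1 stayed between 8.92 and 12.37.

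Lyz1 encodes the lysozyme of Paneth cells, and its neighbour Lyz2 the lysozyme of macrophages. Lyz1 was well above background on all 24 arrays and varied least of the members. It read 9.97, 10.62, 10.26 and 11.13 in M + LFD, 11.40, 11.03, 10.53 and 10.63 in M + HFD, 9.92, 9.56, 11.06 and 12.37 in F + LFD and 10.52, 9.19, 11.12 and 10.24 in F + HFD. It read 10.83, 10.38, 10.51 and 9.58 in F(OVX) + LFD and 10.99, 8.92, 9.33 and 9.95 in F(OVX) + HFD. The groups overlapped in every comparison of diets, with differences of 0.40 ± 0.32 (SE) in M, -0.46 ± 0.75 (SE) in F and -0.53 ± 0.52 (SE) in F(OVX). Without the defensin-high pair of F + LFD arrays, the difference in F was 0.53, and it was 0.09 without F + LFD replicate 4 alone.

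On the defensin-high arrays Lyz1 read 11.06, 12.37, 10.51 and 9.58, from its highest value of all 24 arrays to below its median of 10.52. Lyz1 correlated with Lyz2 at r = 0.73 (rho = 0.71) and with the mean of 12 macrophage markers at r = 0.60 (rho = 0.61), over the same 24 arrays. Lyz2 is itself among the 12, so these are not separate readings, and r with the mean without Lyz2 was not computed. How far the Lyz1 probe also reads Lyz2, a near-identical gene, was not tested. With the defensins the correlation was r = 0.38 (Defa24) and 0.42 (NM_010031) over the 20 arrays without high defensins. On most of these 20 arrays neither defensin was well above background.

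Itln1 encodes an intelectin, a lectin that binds microbial sugars, and Ang4 an angiogenin with antimicrobial activity, both of which goblet cells also make. Ang4 read 10.71, 12.99, 14.33 and 11.81 in M + LFD, 8.29, 12, 15.17 and 10.85 in M + HFD, 13.19, 14.76, 15.49 and 12.26 in F + LFD and 13.62, 14.37, 11.81 and 13.70 in F + HFD. It read 12.18, 10.94, 16.35 and 15.80 in F(OVX) + LFD and 14.75, 14.73, 16.04 and 11.13 in F(OVX) + HFD. The spread within groups, with a pooled SD of 2.06, was larger than that of 99.7% of 23081 genes measured on at least 12 arrays. All 3 comparisons of diets overlapped, with differences of -0.88 ± 1.63 (SE) in M, -0.55 ± 0.92 (SE) in F and 0.34 ± 1.70 (SE) in F(OVX). The last became 2.60 without the defensin-high pair of F(OVX) + LFD arrays. Single arrays turned the sign: the difference ran from -2.08 (without M + HFD replicate 3) to 0.21 (without M + HFD replicate 1) in M and from -0.61 (without F(OVX) + LFD replicate 2) to 1.36 (without F(OVX) + HFD replicate 4) in F(OVX), and in F from -1.11 (without F + LFD replicate 4) to -0.03 (without F + LFD replicate 3).

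Itln1 read 8.52, 9.76, 10.63 and 9.03 in M + LFD, 7.71, 8.26, 10.51 and 7.57 in M + HFD, 9.48, 10.91, 12.69 and 11.36 in F + LFD and 9.69, 10.71, 8.90 and 9.90 in F + HFD. It read 8.16, 7.39, 14.18 and 13.29 in F(OVX) + LFD and 10.54, 9.92, 12.22 and 8.56 in F(OVX) + HFD. The diets overlapped in each comparison, with differences of -0.97 ± 0.82 (SE) in M, -1.31 ± 0.76 (SE) in F and -0.44 ± 1.90 (SE) in F(OVX). Without the defensin-high pair of F + LFD arrays the difference in F was -0.39, and without that of F(OVX) + LFD arrays the last was 2.54. With single arrays left out it ran from -1.64 (without M + HFD replicate 3) to -0.59 (without M + LFD replicate 3) in M, from -1.85 to -0.78 (without F + LFD replicate 3) in F, and from -1.57 (without F(OVX) + LFD replicate 2) to 0.70 (without F(OVX) + LFD replicate 3) in F(OVX). The 4 defensin-high arrays were among the 5 highest for Itln1, the other being F(OVX) + HFD replicate 3 at 12.22, so no step separated them.

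Ang4 and Itln1 rose and fell together, at r = 0.86 (rho = 0.90) over 24 arrays and r = 0.91 over the 20 arrays without high defensins. Ang4 followed Ang6 (r = 1) and Ang2 (r = 0.99), its neighbours in the angiogenin family, and less closely Ang (r = 0.75). These are near-identical genes, and how far their probes read each other was not tested. Ang4 also followed Retnlb, a goblet cell cytokine-like protein, at r = 0.86 (rho = 0.87), and the mean of 13 goblet cell markers at r = 0.72 (rho = 0.63). Itln1 and Retnlb correlated at r = 0.70 (rho = 0.80). Retnlb is 1 of the 13, and with it left out r with the goblet mean was 0.38 (rho = 0.39) for Ang4 and 0.04 (rho = 0.21) for Itln1. Over the 20 arrays without high defensins, r with this mean without Retnlb was 0.81 for Ang4 and 0.70 for Itln1. The array lowest for Ang4, M + HFD replicate 1 at 8.29, was lowest for Retnlb at 2.86. Ang4 correlated with Defa24 at r = -0.47 over the 20 arrays without high defensins, most of which had Defa24 near background.

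Mptx1 encodes a mucosal pentraxin, a secreted pattern-recognition protein. It read 5.29, 8.57, 15.40 and 14.42 in M + LFD and 11.40, 16.05, 16.46 and 15.09 in F + LFD. It read 15.79, 16.22, 15.35 and 13.83 in M + HFD and 15.51, 15.95, 16.12 and 15.23 in F + HFD. It read 14.38, 16.23, 16.95 and 16.75 in F(OVX) + LFD and 16.46, 14.38, 16.80 and 15.49 in F(OVX) + HFD. Both low arrays of M + LFD were those with low Hoxb13, and F + LFD replicate 1, the next lowest, had Hoxb13 at 13.13.

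HFD minus LFD for Mptx1 was 4.38 ± 2.46 (SE) in M, with overlapping groups. It was 0.39 without M + LFD replicates 1 and 2, and -0.12 with the mean of all 15 listed anterior Hox genes as a covariate. In F it was 0.95 ± 1.17 (SE) and in F(OVX) -0.30 ± 0.80 (SE), also with overlap. Without F + LFD replicate 1 the difference in F was -0.17. The relation of Mptx1 to Hoxb13 rested on the 2 low arrays: r was 0.92 over 24 arrays and 0.44 over the other 22. With the mean of the 8 measured anterior Hox genes r was -0.88 and -0.36.

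Mptx2, a second mucosal pentraxin, followed Mptx1 closely, with r = 0.99 (rho = 0.96) over 24 arrays and r = 0.98 without the low pair. It read 4.22 and 7.84 on the low arrays of M + LFD, 10.28 on F + LFD replicate 1 and 12.12 to 15.39 on the others. The 4 defensin-high arrays read 15.09 to 16.95 for Mptx1, and over the other 20 arrays its r with Defa24 was -0.39. Those 20 included the low pair of M + LFD, and Defa24 was not well above background on most of the 20.

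**Figure D3:**
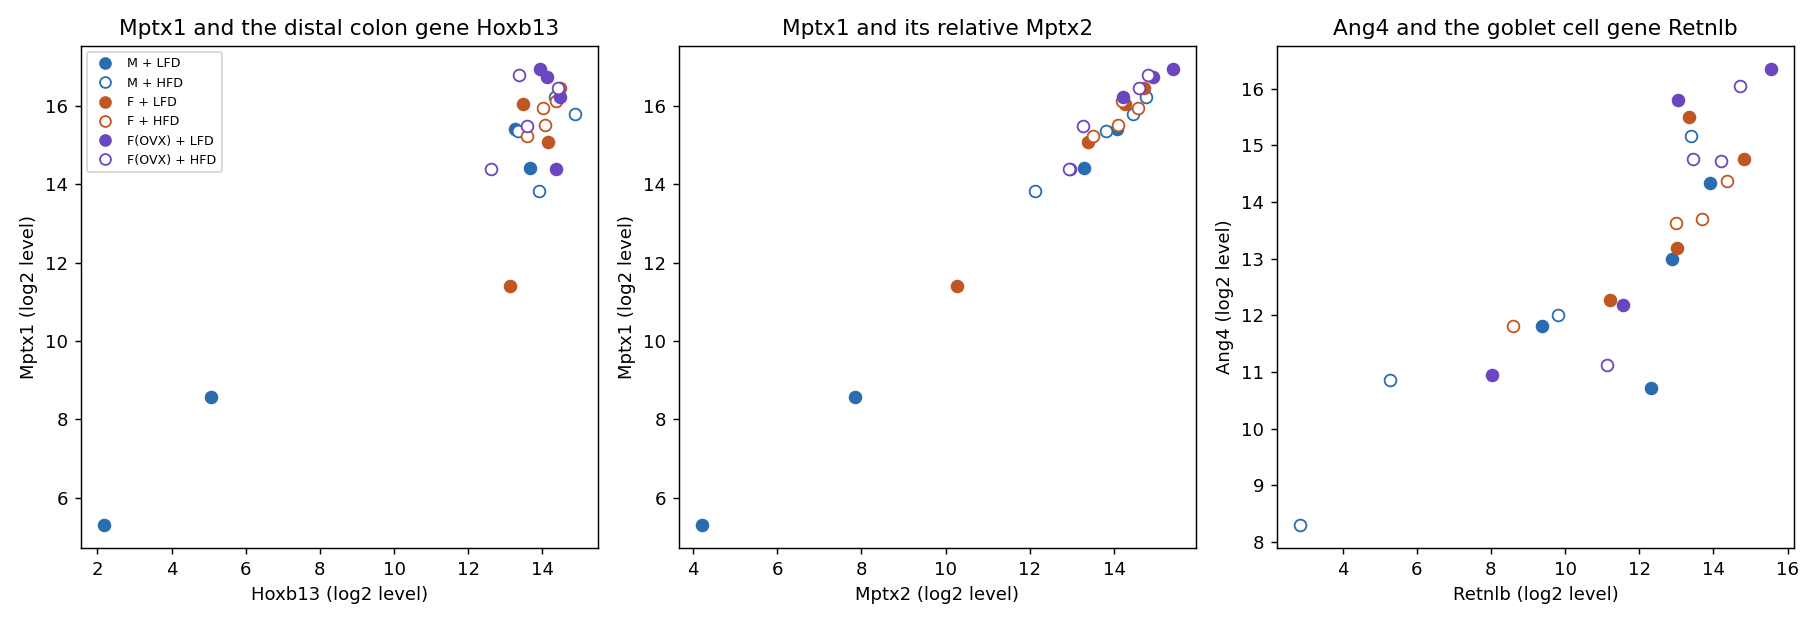
Log2 levels on the 24 arrays, 1 point each, of Mptx1 against Hoxb13 (left), Mptx1 against Mptx2 (middle) and Ang4 against Retnlb (right), colored by sex or surgery, filled for LFD and open for HFD. Mptx1 fell along with Mptx2 on M + LFD replicates 1 and 2, the arrays with Hoxb13 at 2.18 and 5.05, and Ang4 and Retnlb were both lowest on M + HFD replicate 1.

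Ordered by group mean, the defensins were highest in F(OVX) + LFD (8.82 for Defa24) and F + LFD and lowest in F(OVX) + HFD (2.76). Mmp7 was highest in F + LFD (7.76 ± 2.47, SD, n = 4) and lowest in M + HFD (4.66 ± 1.54). Lyz1 was highest in M + HFD (10.90 ± 0.40) and lowest in F(OVX) + HFD (9.79 ± 0.90). Itln1 went from 11.11 ± 1.32 in F + LFD to 8.51 ± 1.36 in M + HFD, Ang4 from 14.16 ± 2.11 in F(OVX) + HFD to 11.58 ± 2.85 in M + HFD, and Mptx1 from 16.08 ± 1.17 in F(OVX) + LFD to 10.92 ± 4.81 in M + LFD. For none of the 8 probes were neighbours in this order further apart than the larger SD of the pair.

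**Figure D4:**
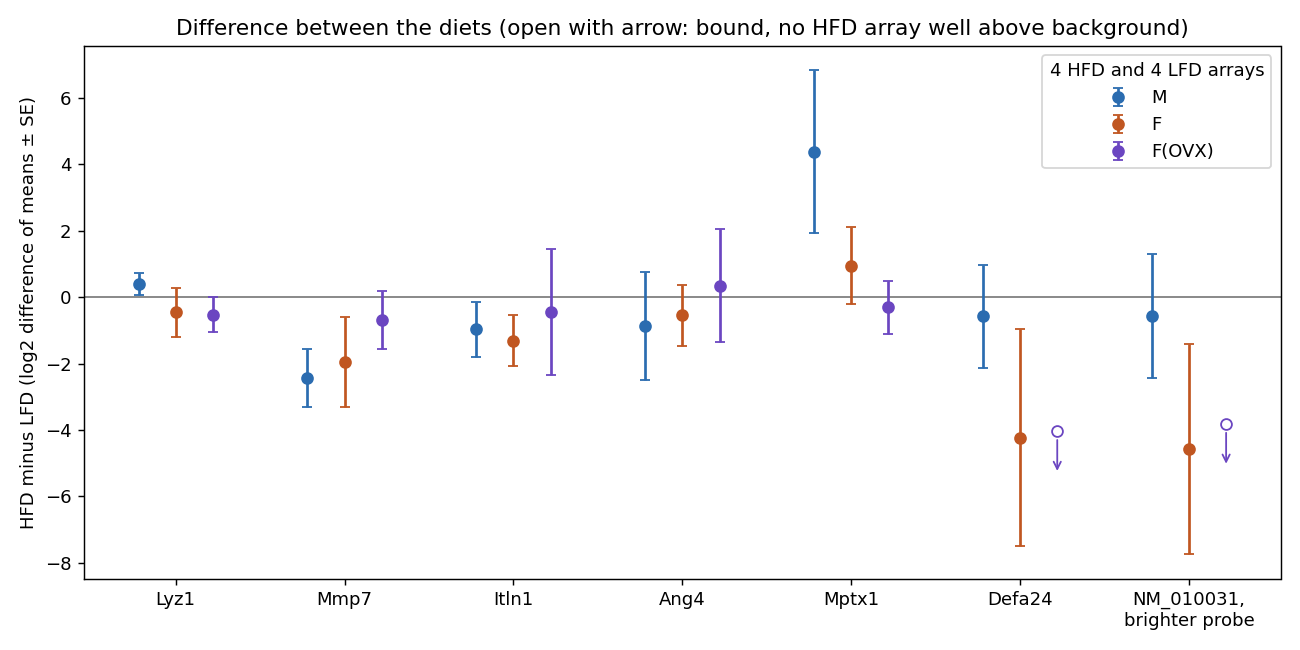
HFD minus LFD for each member in M, F and F(OVX), as the log2 difference of the means of 4 and 4 arrays with its SE, and as a bound (open symbol with arrow, no HFD array well above background) for the defensins in F(OVX). Mmp7 in M lay at -2.44 and Mptx1 in M at 4.38, the latter set by M + LFD replicates 1 and 2.

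The genes whose levels were most like each member over the 24 arrays, among 23075 genes outside the members well above background on at least 12 arrays, were partly their own family. For Ang4 they were Ang6, the accession NM_001123394 and Ang2, with r from 0.99 to 1. For Mptx1 they were the accession XM_011251723 and Mptx2 (both r = 0.99) and Pla2g2f, a secreted phospholipase (r = 0.94, and 0.66 without M + LFD replicates 1 and 2). For Itln1 they were XM_006543565 (r = 0.99), BC145377 (r = 0.95) and Ang2 (r = 0.87). For Mmp7 they were ENSMUST00000018767 (r = 0.99), the acute-phase gene Saa3 (r = 0.79) and the ubiquitin ligase gene Rnf128 (r = 0.77). Which genes the accessions without a symbol belong to was not determined, so some may be transcripts of the members themselves.

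For Lyz1 they were the ceramide kinase gene Cerk (r = 0.92, rho = 0.92), the membrane-curving protein gene Bin1 (r = 0.84) and Nxpe3 (r = 0.83). For Defa24 they were the lipid transporter gene Spns2 (r = 0.84, rho = 0.65), the chemokine gene Ccl17 (r = 0.80) and ENSMUST00000175916 (r = 0.79). For NM_010031 they were Spns2 (r = 0.83), ENSMUST00000175916 (r = 0.82) and Ubd (r = 0.80). The likeness to the defensins rests on arrays that fall into a high and a low set, and other defensins were on too few arrays above background to be compared.

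In the fits of each diet comparison, genes were tested where 1 group or the other had all 4 of its arrays well above background. A call needed a 1.5-fold change or more together with an unadjusted limma p below 0.05. In M, 5 of the 7 members passed this filter and 1, Mmp7, was called, while 4.24% of 20511 genes tested were called. Mmp7 passed only through its LFD arrays, since 2 of its 4 HFD arrays were well above background. In F, 5 passed and 0 were called, against 1.2% of all genes tested. In F(OVX), 6 passed and 1, NM_010031, was called, against 2.18%, and NM_010031 passed the filter only through its LFD arrays. Groups without overlap were seen for the same member in M, where 2.59% of all genes had none, for 0 members in F (1.88%) and for NM_010031 in F(OVX) (2.24%). These counts describe genes chosen with the values known and are no evidence about the members as a set.

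The other genes of Paneth cells were written down as a list of 94 granule genes, regulators and niche signals outside the members. Of 51 on the array, 34 were tested in M, 34 in F and 32 in F(OVX). In M 2 were called, both lower on HFD, in F 0 and in F(OVX) 1, higher on HFD, and no call held an adjusted p under 0.05 with limma. Of all genes tested, 4.24% were called in M, 1.2% in F and 2.18% in F(OVX). The median differences were -0.05, -0.14 and 0.16, against 0.01, 0.00 and 0.01 over all genes tested. None of the 9 granule genes tested in M and F, or the 8 in F(OVX), was called. Lyz2, described above as the lysozyme of macrophages, was counted among these granule genes.

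Nod2, a receptor of bacterial cell wall fragments expressed in Paneth cells, read 8.20, 8.33, 8.28 and 7.94 in M + LFD and 6.88, 7.53, 7.50 and 7.44 in M + HFD, without overlap. It fell by 0.85 ± 0.18 (SE) on the log2 scale (limma, adjusted p = 0.798, lower on 4 of 4 HFD arrays than on any LFD array). Irgm1, an interferon-induced GTPase with a role in autophagy and Paneth cell granules, fell by 0.99 ± 0.31 (SE) (limma, adjusted p = 0.798), with overlapping groups. Spdef, a transcription factor of goblet and Paneth cell maturation, was 1.68-fold higher on HFD in F(OVX) (limma, adjusted p = 1), and it read 11.89 to 13.34 on LFD and 13.03 to 13.44 on HFD. Without M + LFD replicates 1 and 2, Nod2 alone was called in M, and the count rose to 4 without M + LFD replicate 3, to 6 without M + LFD replicate 4, and to 8 without M + HFD replicate 3. Spdef was no longer called without F(OVX) + LFD replicate 1, 2 or 4, or without F(OVX) + HFD replicate 1, 2 or 3, and its difference was then 0.55 to 0.80.

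The largest differences in the list that were not called lay in M, where Mptx2 was 3.93 ± 2.02 (SE) higher on HFD (limma, adjusted p = 0.827) and Pla2g2f 2.85 ± 1.25 (SE) higher (adjusted p = 0.813), both low on the same M + LFD arrays as Mptx1. Nupr1, a stress-response gene of secretory cells, differed by -1.12 in M, the lipase gene Pnliprp2 by -1.08 and Ang2 by -0.88 (limma, adjusted p = 0.827 to 0.961). In F the largest were Ang (-1.70 ± 0.91, SE), Pnliprp2 (-1.24), Mptx2 (0.94), Lyz2 (-0.71), Ang6 (-0.70) and Gfi1 (-0.68), each with a limma adjusted p of 0.992. In F(OVX) they were Mptx2 (-0.47), Nupr1 (0.44), Egf (0.43), Ang6 (0.41) and Dll1 (-0.37), each with a limma adjusted p of 1.

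Whether the diet differences themselves differed between M, F and F(OVX) was asked of the same list in a fit of all 24 arrays. M and F(OVX) differ both in sex and in ovariectomy. Between M and F, 0 of 34 genes were called, against 2.93% of all 22355 genes tested. Between M and F(OVX), 7 of 34 were called, against 6.26% of 20757, and between F(OVX) and F 1 of 34, against 1.46% of 22123. The 7 were Mptx2 and Pla2g2f, with a larger HFD minus LFD in M, and Nod2, Irgm1, Nupr1, Gfi1 and Ephb2 (a receptor that positions Paneth cells in the crypt), with a smaller one. The difference was 4.40 ± 2.07 (SE) for Mptx2 (limma, adjusted p = 0.646) and -0.80 ± 0.32 (SE) for Nod2 (limma, adjusted p = 0.561), and no call had an adjusted p under 0.05. Gfi1, a factor that sets goblet and Paneth against endocrine fate, was the gene called between F(OVX) and F, at 0.98 ± 0.43 (SE) (limma, adjusted p = 1). Without M + LFD replicates 1 and 2, 1 of the 7 was called, and the count also fell to 1 without M + LFD replicate 2 alone or M + HFD replicate 1 alone. It was 2 to 4 without M + HFD replicate 2, F(OVX) + LFD replicate 1, 2 or 4, or F(OVX) + HFD replicate 2. The single call between F(OVX) and F was lost when F + LFD replicate 1, 2 or 4, F + HFD replicate 3, F(OVX) + LFD replicate 1 or 4 or F(OVX) + HFD replicate 3 was left out.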

How the data were processed

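The authors hybridized colon RNA of 24 mice to 1-color Agilent arrays and extracted spots with Feature Extraction 11.0.1.1 of Agilent. Values as deposited are background-subtracted spot intensities, not normalized between arrays, with deposited flags for spots well above background or outliers, the median spot intensity and the local background intensity. Groups and replicate numbers came from the sample titles. Here control spots were left out, outlier spots set to missing, and log2 intensities quantile-normalized over 24 arrays. Of 56605 probes, 58.3% were named through an accession in a RefSeq gene table (GRCm38.p6), and a gene was read by its brightest probe. The number of arrays limits the precision.

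HFD and LFD were compared by limma 3.58.1 (lmFit, eBayes; R 4.3.3), 8 arrays per comparison, with Benjamini-Hochberg adjustment, and differences of diet effects in 1 fit of 24 arrays. The fits were tested on simulated data. A gene with a missing value in a comparison was not tested in it. The members, gene lists and tests were chosen with earlier results of these data known. Named in the text are the members, list genes called or among the 6 largest differences per comparison, and the 3 genes most like each member. Hoxb13, close relatives and 1 or 2 markers of other cell types are also named. Added after their values were seen were Wif1, Nkd1, Notum, Prox1, Axin2, Zg16, Defa21, Defa26, Defa29, Defa38, Defa42, Defa43 and the remaining small intestine markers. Where a gene was well above background on no array of a group, values below the dimmest probe above background on an array were raised to that probe's level. The fold is then a lower bound. Same-numbered arrays of F + LFD and F + HFD deviated together (r = 0.26 to 0.58 over 16830 genes). This was not so in M (r = -0.26 to 0.01), and in F(OVX) r was -0.09 for replicate 2 and 0.25 to 0.33 for the others. Differently numbered arrays were not compared. The number is also the slide column, so whether it pairs animals or marks the position cannot be told apart. The main fits did not use it. The arrays are of separate samples per the labels. Alternatives were 75th percentile scaling, normexp, other filters, the mean of all probes, the methods' t-test, the replicate block, a Hox covariate and leaving out arrays. Tumor counts and fecal bacteria were not analysed here.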

Additional observations from a re-analysis of the deposited data

Results flagged for a closer look

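In each group of 4 arrays the highest or lowest array was compared with the spread of the others for 21 genes, and 4 of 126 sets had an array with a gap to its nearest neighbour large against the group's range (above Dixon's critical value). Chance gives about 1 in 20 such sets. NM_010031 in F(OVX) + HFD had replicate 4 at 2.94 and the next at 2.15 (ratio 0.91), all not well above background. Pnliprp2 in M + LFD had replicate 3 at 9.69 and the next at 4.61 (ratio 0.91). Nod2 in M + HFD had replicate 1 at 6.88 below the next at 7.44 (ratio 0.87), and without it the fall in M was 0.70 in place of 0.85. Egf in F + HFD had replicate 3 at 7.09 below the next at 7.52 (ratio 0.83).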

How the results depend on the processing

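With 4 arrays per group and no adjusted p under 0.05, every count of called list genes is small. In M (2 called) the count was 4 with genes measured on all 24 arrays, 1 without M + LFD replicates 1 and 2, and 2 to 8 when single arrays were left out, highest without M + HFD replicate 3. In F (0 called) it was 0 to 2, and 2 without the defensin-high pair. In F(OVX) (1 called) it was 0 with 75th percentile scaling, the methods' t-test and the Hox covariate, 3 with no filter, 0 to 2 with single arrays left out, and 3 without the defensin-high pair. Between M and F (0) it was 1 with the Hox covariate, without M + LFD replicates 1 and 2, with the replicate block and without the 4 defensin-high arrays, and 0 to 2 with single arrays left out. Between M and F(OVX) (7) it was 3 with 75th percentile scaling, 1 with the Hox covariate, 1 without M + LFD replicates 1 and 2, and 1 to 8 with single arrays left out. Between F(OVX) and F (1) it was 0 with the mean of all probes, 2 with the replicate block, 4 without the 4 defensin-high arrays and 0 to 2 with single arrays left out. The replicate block moved no other count by over 1.5 times. Leaving out the defensin-high arrays was chosen after seeing the data.

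Among named genes, Mptx2 in M reversed to -0.40 with the Hox covariate, Mptx2 in F(OVX) to 0.31 and Lyz2 in F to 0.17 without the defensin-high pair. With single arrays left out, Pnliprp2 in M ranged from -1.62 to 0.24, Ang2 in M from -1.99 to 0.02, Mptx2 in F from -0.02 to 1.45 and Ang6 in F(OVX) from -0.42 to 1.35. The cause was not tested. Low signal limits the defensins and Mmp7, whose lowest values are background.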
